A study of Mus musculus with 7 samples.

Results

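Integrins are membrane receptors made of an alpha and a beta subunit that tie the cell's actin skeleton to the matrix outside it. In the heart each muscle cell is wrapped in a basement membrane, a sheet in which laminins, trimers of an alpha, a beta and a gamma chain, form a network beside that of type IV collagen. Nidogens and the heparan sulfate proteoglycan perlecan link the networks, and inside the cell talin, vinculin and the complex of integrin-linked kinase, PINCH and parvin couple the integrin tails to actin. The genes described here are the rows of the deposited count table whose symbol is an integrin (Itga or Itgb with digits), a laminin chain (Lama, Lamb or Lamc with digits) or a type IV collagen chain (Col4a with a digit), with 12 linkers, proteoglycans and adaptors added by name. They are 50 of 23337 genes: 12 integrin alpha subunits, 9 integrin beta subunits, 11 laminin chains, 6 type IV collagen chains, 6 linkers and proteoglycans (Nid1, Nid2, Hspg2, Agrn, Col15a1, Col18a1) and 6 cytoplasmic adaptors (Ilk, Parva, Lims1, Tln1, Tln2, Vcl).

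Levels in sorted mouse cardiomyocytes were compared between postnatal day 30 (P30, libraries P30a to P30c) and postnatal day 6 (P6, libraries P6a to P6d). At both ages the mice carried a Rosa-Tom or a Rosa-Cas9 allele and had received AAV9-cTNT-Cre on day 1, a virus in which a cardiac troponin T promoter drives Cre, so that age and time since the virus cannot be told apart. Which allele each mouse carried, and whether libraries came from separate animals, is not stated. All p-values therefore reflect only how far these libraries spread, part of which may be technical. Hearts were perfused backwards with collagenase, and cardiomyocytes were sorted by fluorescence before RNA was taken. The library letters are those of the count columns. Libraries held 15555469 to 19368717 counts at P30 and 10594932 to 51427646 at P6, where 3 counts are 0.155 to 0.193 and 0.0583 to 0.283 CPM (counts scaled to a library of 1000000), a limit that covers counting error only. The listed genes took 0.628% to 0.673% of the counts of a P30 library and 0.569% to 0.797% of those of a P6 library, with P6b highest. On the second principal component of all genes (9.37% of the variance) P6a and P6b stood apart from P6c and P6d, and 26 of 40 tested members had their highest P6 value in P6b. The share of all tested genes with that trait is not given here, so the count does not set the members apart. The labelled cell type was checked against its markers: 8 cardiomyocyte genes summed to 94252 to 96988 CPM at P30 and 63263 to 75604 CPM at P6, led by Myh6 with 57300.1 ± 2252 CPM at P30 and 33636 ± 5693 CPM at P6 and Tnnt2 with 9346 ± 596 CPM at P30 and 9795 ± 759 CPM at P6 (here and below mean ± SD, n = 3 at P30 and n = 4 at P6).

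Of the 50 members, 40 passed the filter on low counts. At P30, 10 of these were higher (Itga7, Itga9, Itga6, Itgb6, Lamb2, Lama5, Hspg2, Nid1, Col15a1 and Tln1) and 9 were lower (among them Itgb1, Lamb1, Lamc1, Col4a6, Col18a1, Ilk, Parva and Lims1), by edgeR's quasi-likelihood test at a Benjamini-Hochberg adjusted p under 0.05 over 12561 genes. That is 47.5% of the tested members called, against 54.1% of all tested genes, with 26.3% of all tested genes higher and 27.8% lower. Fewer cells of a type and less RNA per cell cannot be told apart in such bulk libraries. The median log2 fold change (P30 over P6) was -0.08 over the tested members and -0.02 over all tested genes. Called members were thus no more frequent than called genes at large. The split between directions moved with the scaling: with plain library totals 7 members were higher and 13 lower (35% of the called ones higher, against 52.6%), and over all genes the higher share of calls was 34.1% against 48.7%, with a median over all genes of -0.20. With a trend over transcript length removed, 9 members were higher and 12 lower (42.9% higher), whereas over all genes the higher share was 52.5%. The median transcript length was 5798 bases for tested members and 3201 for all tested genes with a known length. The libraries of the ages did not overlap for 19 of 40 tested members, 7 with P30 above and 12 with P30 below; among all tested genes this was 56.6%, with 27.8% above and 28.8% below. The authors' deposited table gave an adjusted p for all 50 members. Of these 50, 10 were higher and 10 lower at an adjusted p under 0.05, where 22.1% and 20.8% of 16500 genes were.

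**Figure D1:**
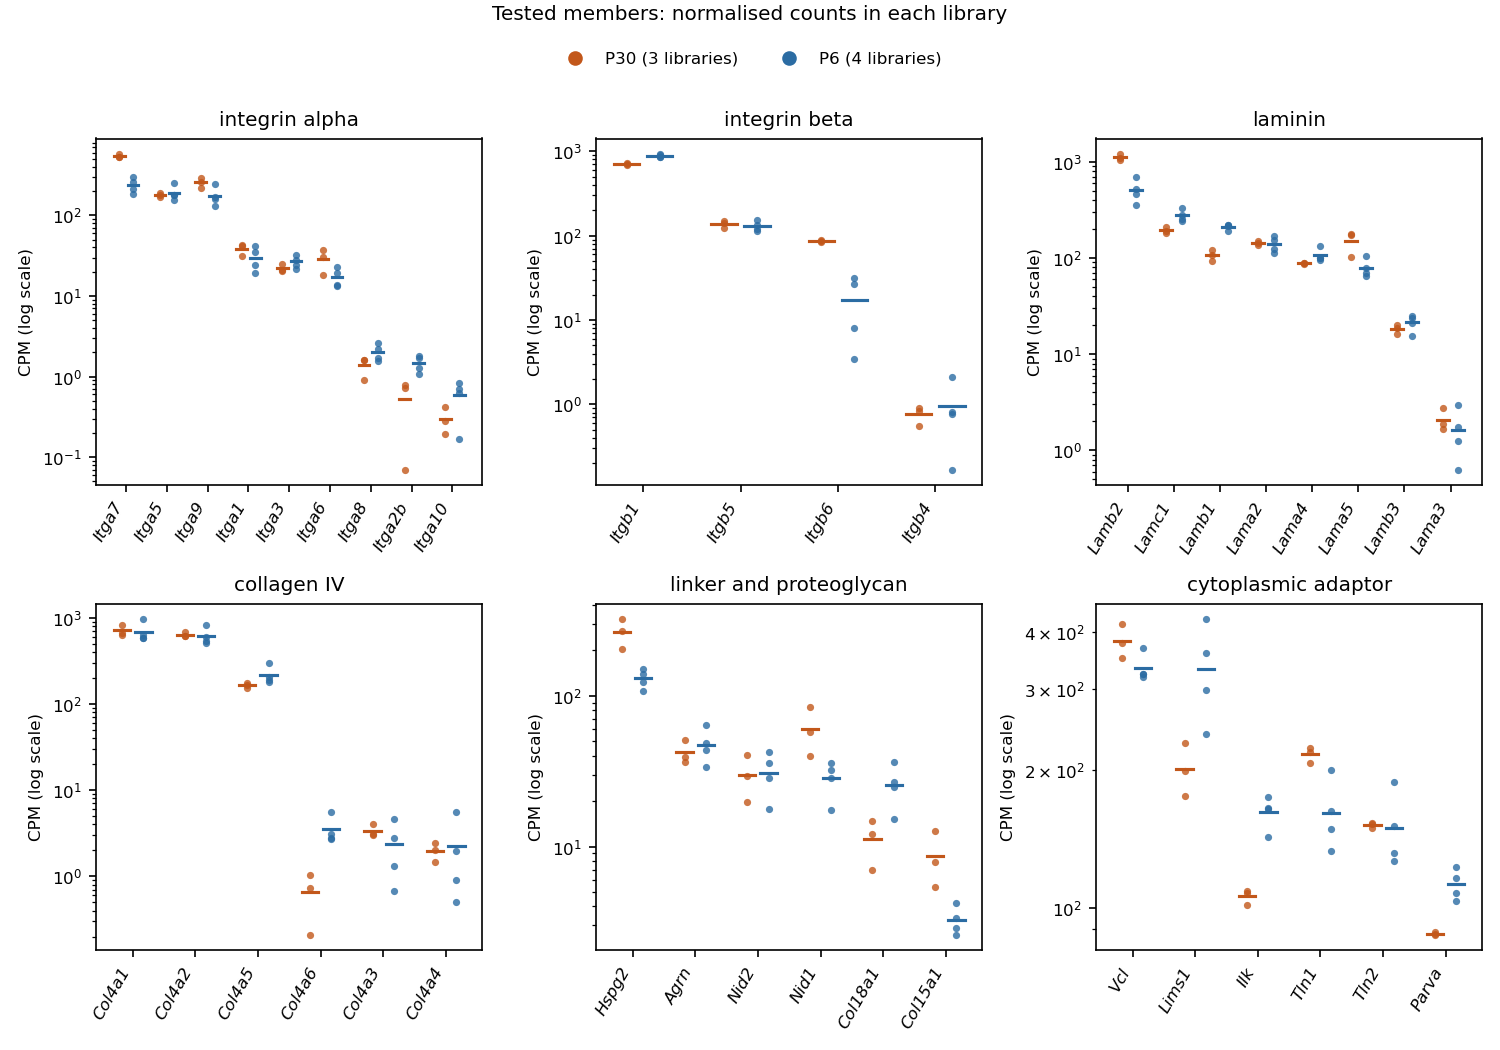
Level of each of 39 tested members in CPM (log axis), by class of gene, with P30 libraries left and P6 libraries right of each tick; points are libraries and bars are group means. Itga7, Itgb6, Lamb2 and Hspg2 sit above, and Lamb1, Col4a6, Ilk and Parva below, every P6 library.

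Among the integrin alpha subunits, Itga7 was the most counted and was higher at P30. Itga7 encodes the laminin-binding subunit of striated muscle (chromosome 10, 128933818 to 128958282, plus strand, GRCm38). It had 534, 534 and 573 CPM in P30a to P30c, against 260.3, 297, 211 and 182 CPM in P6a to P6d, so the lowest P30 library was above the highest P6 library. The log2 fold change was 1.20 ± 0.15 (SE) with an edgeR adjusted p of 1.4e-04. Per kilobase of transcript it stood at 136 CPM per kb at P30 and 59.1 CPM per kb at P6, the highest of the alpha subunits at both ages; it made up 59.4% of their summed level per kilobase at P30 and 41.8% at P6.

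Itga9 and Itga6 were also called higher, each with libraries that overlapped between the ages. Itga9, whose product pairs with beta 1 and binds tenascin C among other ligands, had 259, 221 and 292 CPM in P30a to P30c, against 167, 246, 159 and 132 CPM in P6a to P6d. Its log2 fold change was 0.55 ± 0.19 (edgeR adjusted p = 0.034), and the call was lost with library totals (edgeR adjusted p = 0.16) and on leaving out P6a, P6c, P6d, P30a or P30c (edgeR adjusted p at most 0.11). Itga6, a laminin receptor subunit of endothelial and epithelial cells, had 30.9, 36.9 and 18.4 CPM in P30a to P30c, against 13.5, 13.5, 23.1 and 19.4 CPM in P6a to P6d. P30b was highest and P30c, at the low end of its group, was below P6c and P6d. The sum of endothelial markers, 465, 669 and 326 CPM in P30a to P30c, had the same order, and its part in the result was not tested. The log2 fold change was 0.72 ± 0.26 (edgeR adjusted p = 0.040), and the call was lost with library totals (edgeR adjusted p = 0.11) and without any of P6a, P6b, P6d, P30a and P30b (edgeR adjusted p up to 0.17).

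No other alpha subunit passed the test. Itga5, the fibronectin receptor subunit and the next most counted at P6, had 179, 169.7 and 188 CPM in P30a to P30c, against 180.4, 249, 181 and 155 CPM in P6a to P6d, and its log2 fold change was -0.10 ± 0.15. Itga1, a collagen receptor subunit, had 41.6, 42.98 and 31.6 CPM in P30a to P30c, against 19.5, 24.3, 41.1 and 34.9 CPM in P6a to P6d. Itga3, another laminin receptor subunit, had 20.8, 24.9 and 20.3 CPM in P30a to P30c, against 28.3, 32.4, 21.9 and 24.5 CPM in P6a to P6d. The ages overlapped for all 3 genes. Itga1 was lowest in P6a and P6b, and its log2 fold change was 0.83 with those as the P6 libraries and 0.0062 with P6c and P6d. At low levels, Itga8, which binds nephronectin, had 1.62, 1.62 and 0.912 CPM in P30a to P30c, against 2.17, 1.56, 2.62 and 1.69 CPM in P6a to P6d. Itga10, a collagen receptor subunit known from cartilage, had 0.279, 0.194 and 0.421 CPM in P30a to P30c, against 0.633, 0.832, 0.7004 and 0.169 CPM in P6a to P6d, with 33.5% of its exon bases overlapped by another annotated gene. Itga2b, the platelet fibrinogen receptor subunit, had 0.725, 0.776 and 0.0701 CPM in P30a to P30c, against 1.09, 1.27, 1.71 and 1.77 CPM in P6a to P6d. For Itga2b every P30 library was below every P6 library, but P30c held 1 count, under the level of 3 counts. The edgeR adjusted p of 0.0502 lay just above the threshold. Library totals (edgeR adjusted p = 0.033) and no filter (edgeR adjusted p = 0.044) gave a call of lower. So did DESeq2 (Wald adjusted p = 0.044) and P6c and P6d as the P6 libraries (edgeR adjusted p = 0.049). On leaving out any 1 library Itga2b was not called (edgeR adjusted p at least 0.054).

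The beta subunits went different ways. Itgb1, the common partner of the laminin, collagen and fibronectin receptor subunits, was lower at P30 by a small margin, with 694, 706 and 726 CPM in P30a to P30c, against 857, 857, 923 and 912 CPM in P6a to P6d (chromosome 8, 128685654 to 128733200, plus strand). The ages did not overlap, and the log2 fold change was -0.32 ± 0.07 with an edgeR adjusted p of 0.0047. Itgb5, which pairs with alpha v, had 124, 142 and 151 CPM in P30a to P30c, against 134, 153, 118 and 114 CPM in P6a to P6d and was not called (log2 fold change 0.10 ± 0.12). Itgb4, the partner of alpha 6 in hemidesmosomes, had 0.558, 0.905 and 0.842 CPM in P30a to P30c, against 0.814, 2.098, 0.774 and 0.169 CPM in P6a to P6d and did not pass either.

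Itgb6 had the largest rise among the members. It encodes a partner of alpha v that is known from epithelia, where the pair releases TGF-beta from its latent form (chromosome 2, 60598292 to 60722643, minus strand). It had 84.5, 89.4 and 87.4 CPM in P30a to P30c, against 31.7, 26.5, 8.000 and 3.46 CPM in P6a to P6d. The P30 libraries were close to each other, while the P6 libraries were spread widely, with P6a and P6b above P6c and P6d. The log2 fold change was 2.34 ± 0.55 (edgeR adjusted p = 0.0055); it was 1.61 with P6a and P6b as the P6 libraries and 3.76 with P6c and P6d, an alternative added after the data were seen. Itgav, which encodes its alpha v partner and is no member, had 36.04, 24.9 and 27.4 CPM in P30a to P30c, against 20.9, 19.5, 21.05 and 24.9 CPM in P6a to P6d, with a log2 fold change of 0.45 ± 0.15 (edgeR adjusted p = 0.029) that was not called with library totals, with the length trend removed, or without any of P6a, P6b, P6c and P30a (edgeR adjusted p up to 0.157). Summed per kilobase over the 9 beta subunits the level was 247 ± 8.66 CPM at P30 and 276 ± 3.23 CPM at P6, of which Itgb1 took 75.3% and 84.2%, Itgb5 17.1% and 14.3%, and Itgb6 7.35% and 1.32%. Over the 12 alpha subunits the sum was 229 ± 9.02 CPM per kb at P30 and 141 ± 27.6 CPM per kb at P6.

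**Figure D2:**
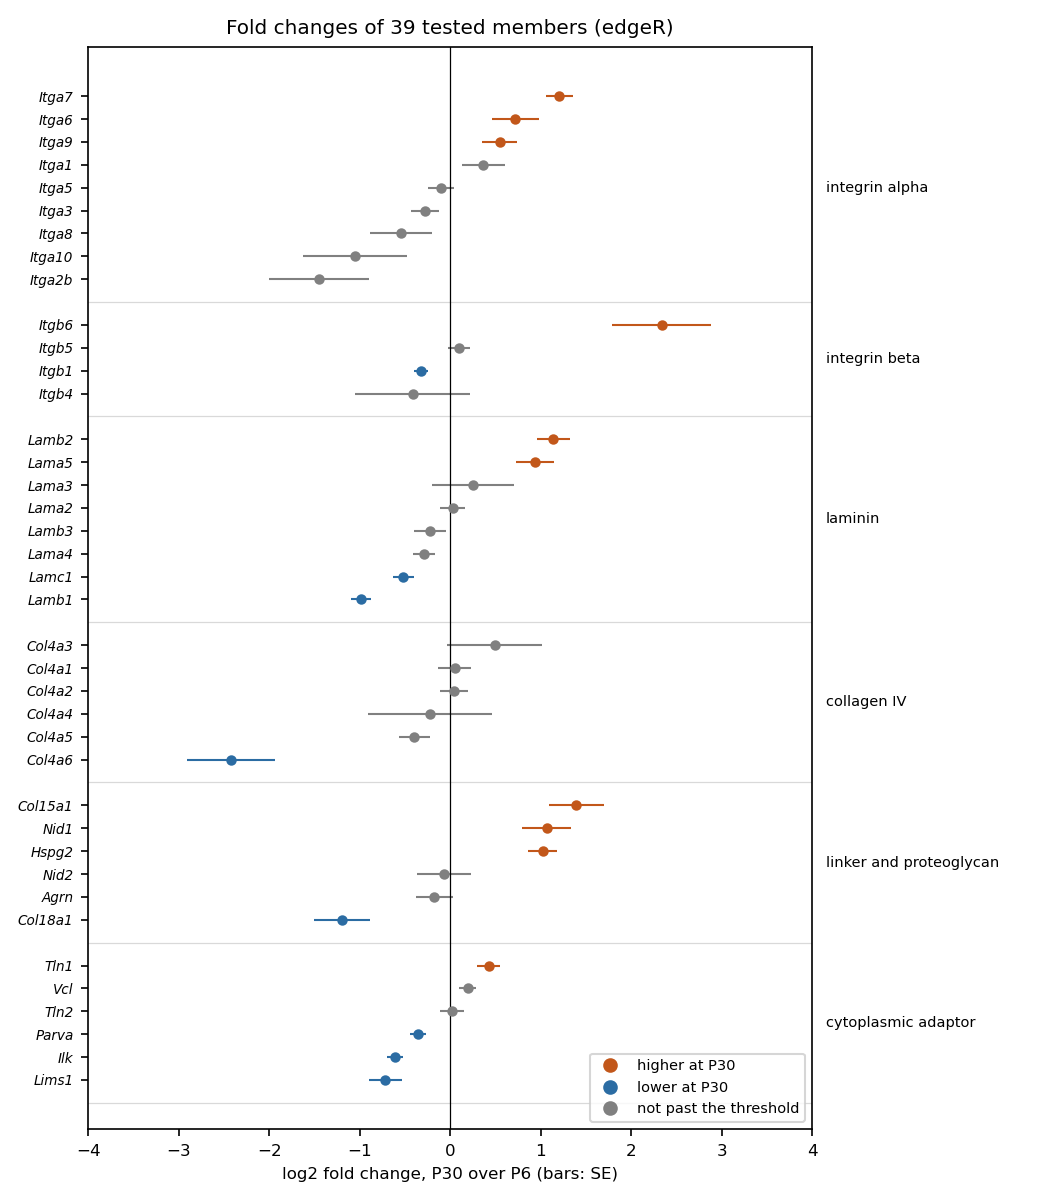
Log2 fold change (P30 over P6, x axis) with its SE for 39 tested members, grouped by class; orange points passed the edgeR test as higher, blue as lower and grey did not pass. Itgb6 at 2.34 and Col4a6 at -2.42 lie at the ends, and among the laminin chains Lamb2 lies at 1.14 and Lamb1 at -0.99.

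The laminin beta chains moved in opposite directions. Lamb2, the beta chain of mature muscle, synaptic and glomerular basement membranes, was higher at P30, and Lamb1, the beta chain widespread in the embryo, was lower. Lamb2 (chromosome 9, 108479736 to 108490530, plus strand) had 1099.5, 1053 and 1195 CPM in P30a to P30c, against 524, 687, 461 and 352 CPM in P6a to P6d. Lamb1 (chromosome 12, 31265234 to 31329644, plus strand) had 107, 119.9 and 92.5 CPM in P30a to P30c, against 190.0, 222, 212 and 220.2 CPM in P6a to P6d. For both genes the libraries of the ages were apart, in opposite order. The log2 fold changes were 1.14 ± 0.18 for Lamb2 (edgeR adjusted p = 6.7e-04) and -0.99 ± 0.11 for Lamb1 (edgeR adjusted p = 6.6e-05), and both calls held under all 14 alternatives. Of the counts of the pair, Lamb2 made up 91.1, 89.8 and 92.8% in P30a to P30c, against 73.4, 75.6, 68.5 and 61.5% in P6a to P6d, so that it was the more counted chain at both ages. The sum of the 3 beta chains per kilobase was 220 ± 10.9 CPM at P30 and 131 ± 24.4 CPM at P6.

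The windows around the transcription starts of these beta chain genes are shown because the genes moved apart between the ages. They run from 250 bases before to 50 bases after the start, from RefSeq on GRCm38.p6, chr9:108479612-108479911, plus strand for Lamb2 and chr12:31265043-31265342, plus strand for Lamb1. Capitals mark GC boxes (GGGCGG) and CCAAT boxes on either strand; no match overlaps another, and positions give the first base of a match.
Lamb2: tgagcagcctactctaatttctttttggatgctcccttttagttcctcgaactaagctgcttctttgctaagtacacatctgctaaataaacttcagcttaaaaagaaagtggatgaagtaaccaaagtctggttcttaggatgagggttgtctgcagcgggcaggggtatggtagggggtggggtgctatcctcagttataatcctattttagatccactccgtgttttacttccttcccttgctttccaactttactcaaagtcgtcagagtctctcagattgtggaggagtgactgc
Lamb1: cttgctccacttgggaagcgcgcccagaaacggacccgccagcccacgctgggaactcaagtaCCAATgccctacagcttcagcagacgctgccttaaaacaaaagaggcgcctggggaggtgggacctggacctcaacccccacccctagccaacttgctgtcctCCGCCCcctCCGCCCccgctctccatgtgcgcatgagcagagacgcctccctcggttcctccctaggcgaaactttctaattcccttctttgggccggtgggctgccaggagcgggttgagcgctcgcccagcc
The Lamb1 window held 2 GC boxes, at -84 and -75 from the start, and 1 CCAAT box at -187, whereas the Lamb2 window held neither motif. Neither held TATAAA or CATTCC, the core of the MCAT element known from muscle promoters. Among 32851 windows of the same length, 35.7% held a GC box, 37.4% a CCAAT box, 13.6% TATAAA and 14.7% CATTCC, on either strand. The GC content was 44% for Lamb2 and 63.7% for Lamb1.

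Of the alpha chains only Lama5 was called. Lama5, found in many mature basement membranes, vessels included (chromosome 2, 180176373 to 180225859, minus strand), had 179, 173 and 103 CPM in P30a to P30c, against 64.5, 104, 78.8 and 69.6 CPM in P6a to P6d. P30c and P6b were nearly level, and the other P30 libraries were above all P6 libraries; the log2 fold change was 0.93 ± 0.21 (edgeR adjusted p = 0.0044). Lama2, the alpha chain of the muscle basement membrane whose loss causes congenital muscular dystrophy, had 151, 141 and 136 CPM in P30a to P30c, against 155, 169, 124 and 112 CPM in P6a to P6d, with a log2 fold change of 0.03 ± 0.14. Lama4, an alpha chain of vessel and muscle, had 88.6, 89.1 and 86.6 CPM in P30a to P30c, against 101, 134, 99.1 and 95.6 CPM in P6a to P6d. All P30 libraries were below the P6 ones for Lama4, but the edgeR adjusted p was 0.073; it was called lower with library totals (edgeR adjusted p = 0.015), with the length trend removed (edgeR adjusted p = 0.0056) and without P6d (edgeR adjusted p = 0.048). Lama3, an epithelial chain, had 1.67, 1.87 and 2.74 CPM in P30a to P30c, against 0.633, 1.76, 2.93 and 1.27 CPM in P6a to P6d and did not pass the test.

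Lamc1, the gamma chain of most laminins, was lower. It had 189, 210.2 and 182 CPM in P30a to P30c, against 243, 331, 281 and 253 CPM in P6a to P6d (log2 fold change -0.52 ± 0.12, edgeR adjusted p = 0.0045). For Lamc1 every P30 library was below every P6 library. Lamb3, an epithelial beta chain, had 18.6, 16.4 and 19.9 CPM in P30a to P30c, against 23.7, 15.6, 25.03 and 21.2 CPM in P6a to P6d and did not pass the test. Per kilobase the alpha chains summed to 43.0 ± 4.57 CPM at P30 and 39.5 ± 6.69 CPM at P6.

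Of the type IV collagen chains, only Col4a6 passed the test. Col4a1 and Col4a2 form the trimer found in nearly all basement membranes. Col4a1 had 664, 829 and 638 CPM in P30a to P30c, against 587, 952, 633 and 575 CPM in P6a to P6d, and Col4a2 had 608, 676 and 616 CPM in P30a to P30c, against 538, 823, 591 and 505 CPM in P6a to P6d. For both genes P6b was the highest of all 7 libraries, the ages overlapped, and the log2 fold changes were 0.05 ± 0.18 for Col4a1 and 0.04 ± 0.16 for Col4a2. P6b also had the most fibroblast marker counts, 391 CPM against 158 to 218 CPM in the other P6 libraries, and the part of that in these values was not tested. Of the counts of the pair, Col4a1 made up 52.7% ± 2.18 at P30 and 52.7% ± 0.8996 at P6. The genes lie head to head on chromosome 8, with starts that overlap by 22 bases.

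Their start windows are shown because the genes are known to share a promoter and had nearly the same share at both ages: chr8:11312777-11313076, minus strand for Col4a1 and chr8:11312555-11312854, plus strand for Col4a2, with the same marks. The windows share 78 bases, read on opposite strands.
Col4a1: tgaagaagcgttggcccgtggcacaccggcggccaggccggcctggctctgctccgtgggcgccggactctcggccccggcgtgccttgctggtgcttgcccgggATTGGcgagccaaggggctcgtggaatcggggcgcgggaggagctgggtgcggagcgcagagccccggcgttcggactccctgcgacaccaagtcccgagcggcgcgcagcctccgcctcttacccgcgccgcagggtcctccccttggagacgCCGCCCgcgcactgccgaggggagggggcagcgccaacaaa
Col4a2: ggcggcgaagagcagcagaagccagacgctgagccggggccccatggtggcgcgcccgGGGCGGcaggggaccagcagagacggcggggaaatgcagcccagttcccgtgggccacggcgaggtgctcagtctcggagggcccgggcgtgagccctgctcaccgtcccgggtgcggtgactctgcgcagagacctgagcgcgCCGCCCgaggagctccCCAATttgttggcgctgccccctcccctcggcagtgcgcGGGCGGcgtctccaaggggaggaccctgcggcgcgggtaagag
The Col4a1 window held 1 GC box, at +10, and 1 CCAAT box, at -145. The Col4a2 window held 3 GC boxes, at -192, -48 and +8, and 1 CCAAT box, at -32. The GC box at +10 of Col4a1 and that at +8 of Col4a2 are the same site, read on opposite strands. The GC content was 74% for Col4a1 and 73.7% for Col4a2.

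Col4a5 and Col4a6 lie head to head on the X chromosome, with starts 1343 bases apart. Col4a5, a chain of glomerular and muscle basement membranes, had 154, 168 and 177 CPM in P30a to P30c, against 205, 302, 181 and 188 CPM in P6a to P6d. Every P30 library was below every P6 library, but the gene was not called (log2 fold change -0.40 ± 0.17, edgeR adjusted p = 0.073); it was called lower with library totals (edgeR adjusted p = 0.023), the length trend removed (edgeR adjusted p = 0.012), no filter (edgeR adjusted p = 0.035) and without P6c (edgeR adjusted p = 0.043). Col4a6, known from smooth muscle and epithelial basement membranes (chromosome X, 141165403 to 141474076, minus strand), had 0.725, 1.03 and 0.2104 CPM in P30a to P30c, against 2.71, 5.56, 3.06 and 2.79 CPM in P6a to P6d. This was the largest fall among the members, with a log2 fold change of -2.42 ± 0.49 (edgeR adjusted p = 0.0023), and P30c, the lowest library, was near the level of 3 counts. Col4a3, a chain of the glomerular membrane, had 3.01, 3.102 and 3.999 CPM in P30a to P30c, against 2.804, 4.63, 1.31 and 0.675 CPM in P6a to P6d. Col4a4, its partner there, had 1.45, 2.46 and 2.03 CPM in P30a to P30c, against 1.99, 5.56, 0.903 and 0.506 CPM in P6a to P6d, and neither passed the test. Their starts are 72 bases apart, and both were lowest in P6c and P6d. The log2 fold change depended on which P6 libraries were used: with P6c and P6d it was 1.62 for Col4a3 and 1.35 for Col4a4, and with P6a and P6b it was -0.16 for Col4a3 and -0.97 for Col4a4.

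The start windows of the X-linked pair are shown because Col4a6 passed the test and its neighbour did not: chrX:141475169-141475468, plus strand for Col4a5 and chrX:141474027-141474326, minus strand for Col4a6, with the same marks.
Col4a5: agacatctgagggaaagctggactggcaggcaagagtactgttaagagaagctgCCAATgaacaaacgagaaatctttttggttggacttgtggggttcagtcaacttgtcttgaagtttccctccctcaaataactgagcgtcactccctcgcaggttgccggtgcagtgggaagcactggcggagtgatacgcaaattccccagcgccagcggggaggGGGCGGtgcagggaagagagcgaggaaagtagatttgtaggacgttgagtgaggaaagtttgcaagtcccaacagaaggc
Col4a6: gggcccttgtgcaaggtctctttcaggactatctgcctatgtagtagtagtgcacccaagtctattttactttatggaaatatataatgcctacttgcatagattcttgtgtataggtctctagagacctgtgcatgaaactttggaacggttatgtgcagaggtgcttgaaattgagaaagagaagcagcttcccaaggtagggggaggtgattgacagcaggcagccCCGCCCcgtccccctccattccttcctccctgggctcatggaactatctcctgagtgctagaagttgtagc
The Col4a5 window held a GC box at -30 and a CCAAT box at -196. The Col4a6 window held a GC box at -21, no CCAAT box, and a CATTCC match, not in capitals, at -5. None of the 4 collagen windows held TATAAA. The GC content was 52.7% for Col4a5 and 48.3% for Col4a6.

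Among linkers and proteoglycans, Hspg2, Nid1 and Col15a1 were higher and Col18a1 was lower. Hspg2, which encodes perlecan (chromosome 4, 137468769 to 137570630, plus strand), had 206, 321 and 269 CPM in P30a to P30c, against 124, 150.4, 139.8 and 107 CPM in P6a to P6d (log2 fold change 1.02 ± 0.16, edgeR adjusted p = 5.1e-04). Nid1, a nidogen that bridges laminin and type IV collagen (chromosome 13, 13437551 to 13512269, plus strand), had 57.2, 84.02 and 39.9 CPM in P30a to P30c, against 17.5, 32.4, 35.7 and 28.5 CPM in P6a to P6d (log2 fold change 1.07 ± 0.27, edgeR adjusted p = 0.008). Nid2, the related nidogen, had 29.2, 40.2 and 19.7 CPM in P30a to P30c, against 17.7, 28.3, 42.2 and 35.7 CPM in P6a to P6d and did not pass the test. For Hspg2 and Nid1 the ages did not overlap, while for Nid2 they did. Nid1, Nid2 and Hspg2 were highest at P30 in P30b, the library with the most endothelial marker counts (669 CPM), and the part of that in the result was not tested.

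Col15a1 and Col18a1 encode related proteoglycan collagens. Col15a1, known from muscle and capillary basement membranes, had 7.87, 12.7 and 5.402 CPM in P30a to P30c, against 3.35, 2.597, 4.22 and 2.87 CPM in P6a to P6d (log2 fold change 1.39 ± 0.30, edgeR adjusted p = 0.0035). Col18a1, the source of endostatin, had 12.1, 14.8 and 7.01 CPM in P30a to P30c, against 15.2, 36.1, 26.98 and 24.8 CPM in P6a to P6d (log2 fold change -1.20 ± 0.31, edgeR adjusted p = 0.0087). The ages were apart for both, in opposite order, and both were highest at P30 in P30b and lowest in P30c, as the endothelial marker sum was. Of the counts of the pair, Col18a1 made up 60.5, 53.9 and 56.5% in P30a to P30c, against 81.95, 93.3, 86.5 and 89.6% in P6a to P6d. Agrn, which encodes agrin, a laminin- and dystroglycan-binding proteoglycan, had 39.1, 51.1 and 36.5 CPM in P30a to P30c, against 43.96, 64.1, 48.6 and 33.5 CPM in P6a to P6d and did not pass the test.

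The listed genes of the complex behind the integrin tail, Ilk, Parva and Lims1, were lower at P30. Ilk, the pseudokinase at its centre, had 108, 109 and 102 CPM in P30a to P30c, against 142, 165, 174 and 165 CPM in P6a to P6d (log2 fold change -0.61 ± 0.09, edgeR adjusted p = 4.3e-04). Of its exon bases 76.7% overlap Taf10 on the opposite strand, and the strand setting of the count is not given in the sources used here; its reads cannot be told from those of Taf10, which had 20.8 ± 2.14 CPM at P30 and 28.1 ± 2.54 CPM at P6. Parva, the alpha parvin that binds actin, had 88.5, 87.96 and 87.5 CPM in P30a to P30c, against 108, 123, 116 and 104 CPM in P6a to P6d (log2 fold change -0.36 ± 0.09, edgeR adjusted p = 0.0066). Lims1, which encodes the adaptor PINCH, had 228, 175 and 199 CPM in P30a to P30c, against 299, 239.9, 359 and 425 CPM in P6a to P6d (log2 fold change -0.72 ± 0.18, edgeR adjusted p = 0.0077). In all 3 genes every P30 library was below every P6 library. The complex as a whole did not move 1 way. Outside the list, the PINCH gene Lims2 was higher (log2 fold change 1.75 ± 0.25) and the parvin gene Parvb was not called (0.06 ± 0.19). The fold change of Lims1 depended on which P6 libraries were used, at -0.40 with P6a and P6b and -0.98 with P6c and P6d.

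Of the talins and vinculin, only Tln1 was called, as higher. Tln1, the widespread talin that switches integrins on, had 223, 219 and 207 CPM in P30a to P30c, against 149, 199, 163 and 133 CPM in P6a to P6d (log2 fold change 0.42 ± 0.13, edgeR adjusted p = 0.019). The ages were apart, but the call was lost with library totals (edgeR adjusted p = 0.18), with the length trend removed (edgeR adjusted p = 0.062), and without any of P6a, P30a and P30b (edgeR adjusted p up to 0.061). Tln2, the talin abundant in striated muscle, had 153, 153 and 149 CPM in P30a to P30c, against 151, 188, 132 and 127 CPM in P6a to P6d, with a log2 fold change of 0.02 ± 0.13 that was -0.29 with the length trend removed (edgeR adjusted p = 0.034) and 0.21 with P6c and P6d as the P6 libraries (edgeR adjusted p = 0.045). Vcl, which encodes vinculin, had 378, 350.4 and 415 CPM in P30a to P30c, against 324, 368, 324 and 318 CPM in P6a to P6d and did not pass the test, although it was called higher without P6b (edgeR adjusted p = 0.032). Of the Vcl exon bases 25.5% overlap Ap3m1, which had 36.7 ± 4.03 CPM at P30 and 50.1 ± 2.45 CPM at P6.

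The remaining 10 members had too few counts to be tested. Over all 7 libraries Itgb2l had 9 counts, Lamc3 12, Itgb8 21, Itgb7 29, Lama1 30, Itga4 34, Itgb2 35, Itga2 62, Itga11 65 and Itgb3 99, and no member of this group had more than 47 counts in a library. They include the leukocyte subunit Itgb2 and the platelet subunit Itgb3.

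Shares of raw counts within 12 pairs of related genes do not depend on the scaling of libraries. In 6 pairs the ages were apart and the two-sided exact permutation p was 0.0286, the smallest that 35 placements of 7 libraries allow, but after adjustment over the 12 pairs it was 0.0571, so that none passed 0.05. With so few placements no pair could pass on its own after that adjustment, however large its difference. Besides the Lamb2 and Col18a1 shares above, Itga7 was 75.4% ± 0.4902 at P30 and 55.3% ± 2.53 at P6 of its pair with Itga5, Lama5 was 62.4% ± 6.99 at P30 and 42.3% ± 2.398 at P6 of its pair with Lama4, and Nid1 was 66.9% ± 0.733 at P30 and 48.3% ± 4.01 at P6 of the nidogen counts. Lims2, the second PINCH gene and no member, was 11.6% ± 4.12 at P30 and 2.34% ± 0.849 at P6 of its pair with Lims1. Raw counts favour the longer transcript. With counts divided by transcript length, Lama5 made up 47.1% at P30 and 28.0% at P6, and Lims2 23.1% at P30 and 5.25% at P6. Lims2 itself had 25.7, 34.2 and 18.4 CPM in P30a to P30c, against 5.25, 8.32, 10.1 and 6.75 CPM in P6a to P6d (log2 fold change 1.75 ± 0.25, edgeR adjusted p = 3.2e-04).

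In 2 further pairs the ages did not overlap, but another placement of the libraries gave a difference at least as large in the opposite direction. Lama2 was 61.8% ± 1.03 at P30 and 56.5% ± 2.800 at P6 of its pair with Lama4, and Tln2 was 41.2% ± 0.664 at P30 and 48.1% ± 2.36 at P6 of the talin counts, each with an exact permutation p of 0.0571, adjusted 0.0857. The pairs that overlapped were Itga7 with Itga6 (94.99% ± 1.72 at P30 and 92.8% ± 2.96 at P6), Itgb5 with Itgb1 (16.4% ± 1.07 at P30 and 12.8% ± 1.91 at P6), Parvb with Parva (17.6% ± 3.99 at P30 and 13.9% ± 1.43 at P6) and Col4a1 with Col4a2, with exact permutation p of 0.343, 0.0857, 0.143 and 0.971. Parvb encodes beta parvin and had 18.96 ± 5.08 CPM at P30 and 18.2 ± 2.69 CPM at P6.

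**Figure D3:**
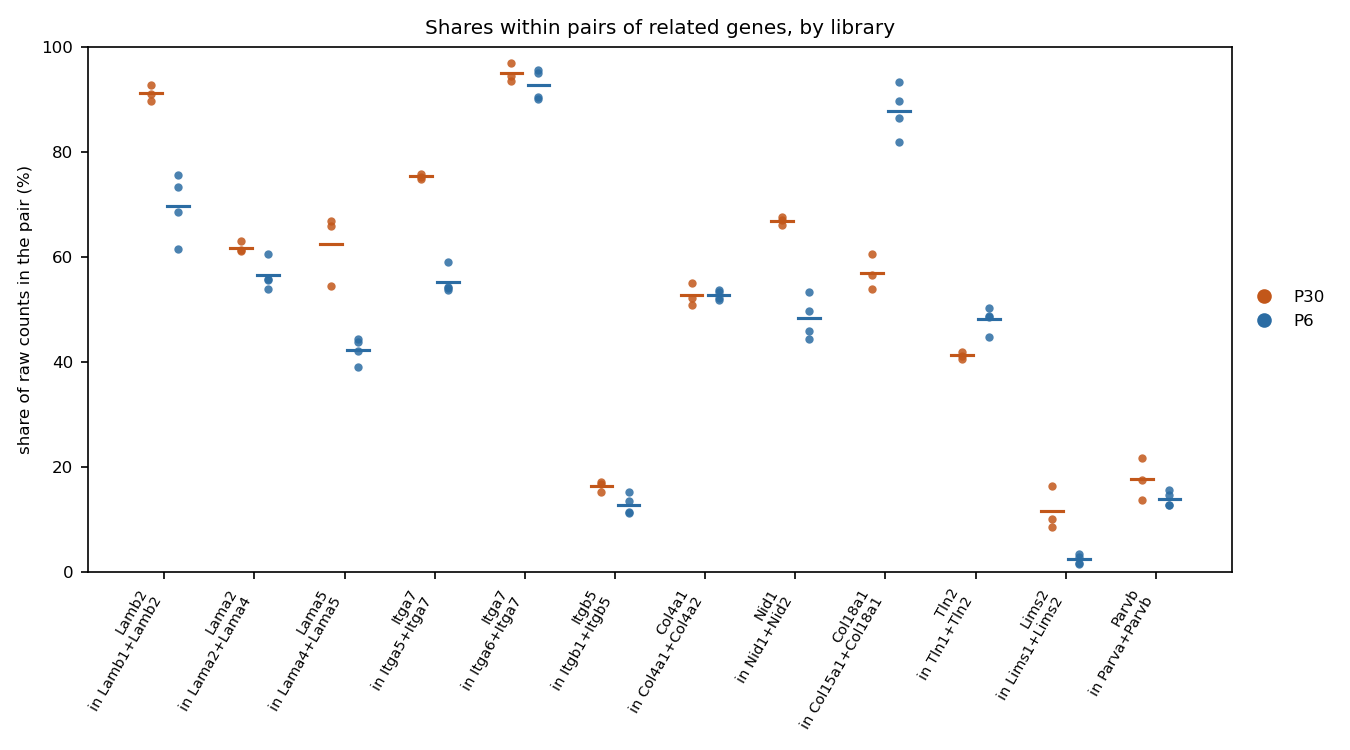
Share of the first gene in the raw counts of each of 12 pairs (percent, y axis), with P30 libraries left and P6 libraries right; points are libraries and bars are group means. Lamb2 lies at 89.8% to 92.8% in P30 libraries and at 61.5% to 75.6% in P6 libraries, while Col4a1 averages 52.7% at both ages.

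Genes of the same pathway outside the members were called in both directions, at 42.9% to 76.2% of the tested genes of a list, against 54.1% of all tested genes. Among 6 further integrin subunits, 3 were tested, with Itgav higher and Itgal, the leukocyte alpha L, lower (1.305 ± 0.754 CPM at P30 and 3.74 ± 0.323 CPM at P6). Of 32 tested adaptors and focal adhesion genes, 9 were higher and 7 lower. Tns1, which encodes tensin, was higher with 999 ± 24.97 CPM at P30 and 624 ± 101 CPM at P6. Fermt2, the kindlin of the heart, which binds integrin beta tails, was lower (169 ± 10.5 CPM at P30 and 253 ± 22.5 CPM at P6), as was Actn4, a non-muscle actinin (151 ± 11.9 CPM at P30 and 209 ± 33.1 CPM at P6, a call lost without P30a). Rsu1, a partner of PINCH chosen after its values were seen, was lower too (33.9 ± 2.74 CPM at P30 and 67.8 ± 4.504 CPM at P6).

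Of 11 tested matrix receptors that are not integrins, 2 were higher and 4 lower. Bcam, a receptor for laminin alpha 5, was lower with 361 ± 61.1 CPM at P30 and 590.5 ± 46.6 CPM at P6, and so was the collagen receptor Ddr1 with 74.6 ± 12.2 CPM at P30 and 109 ± 22.6 CPM at P6, a call lost without P30a or P30b. Cd151, a tetraspanin partner of laminin-binding integrins, was higher with 66.4 ± 21.9 CPM at P30 and 42.6 ± 3.43 CPM at P6, a call lost without P6d, P30b or P30c, and Ddr2, a collagen receptor of fibroblasts, with 5.07 ± 2.18 CPM at P30 and 2.16 ± 0.6000 CPM at P6, a call lost without P30b. The number of higher genes in this list was 4 without P6b, 0 without P30b and 1 without P30c. Dag1, the dystroglycan gene, which was chosen after its values were seen, had 842 ± 67.2 CPM at P30 and 712 ± 114 CPM at P6 and did not pass the test.

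Of 21 tested other matrix ligands, 4 were higher and 5 lower. Those higher included Fbln1, a fibulin of basement membranes, with 92.8 ± 39.4 CPM at P30 and 40.4 ± 8.904 CPM at P6, and Smoc2, a calcium-binding matrix protein related to Sparc, with 85.6 ± 30.9 CPM at P30 and 10.2 ± 3.63 CPM at P6. Sparc, a binder and chaperone of type IV collagen, was lower (318 ± 51.8 CPM at P30 and 541 ± 102 CPM at P6), as was Col6a2, a type VI collagen chain (18.3 ± 7.76 CPM at P30 and 65.8 ± 5.49 CPM at P6). Of 21 tested genes that process or remodel type IV collagen and laminin, 7 were higher and 9 lower, 76.2% of the list. Those higher included Plod1, a collagen lysyl hydroxylase, with 276 ± 39.1 CPM at P30 and 135 ± 26.5 CPM at P6, and Mia3, which serves collagen export from the endoplasmic reticulum, with 101 ± 4.71 CPM at P30 and 82.2 ± 10.3 CPM at P6, a call that was lost without any 1 library other than P6b. Pxdn, the peroxidase that makes the sulfilimine crosslinks of type IV collagen, was lower (163 ± 27.97 CPM at P30 and 303 ± 61.1 CPM at P6), as was the metalloproteinase inhibitor Timp2 (107 ± 23.4 CPM at P30 and 199 ± 44.9 CPM at P6).

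Several members are also expressed by cells other than cardiomyocytes, and the endothelial markers differed between the libraries in the same direction as the age. The 10 endothelial markers summed to 465, 669 and 326 CPM in P30a to P30c, against 109, 182, 194 and 146 CPM in P6a to P6d, and 9 of 10 were higher at P30, with Kdr at 153 ± 46.9 CPM at P30 and 28.4 ± 7.64 CPM at P6 and Pecam1 at 62.8 ± 27.1 CPM at P30 and 27.1 ± 5.85 CPM at P6. All were detected in every library. P30b had the highest sum and P30c the lowest among the P30 libraries, and Nid1, Itga6 and Col15a1 had that same order, 3 of the 10 members called higher. P30c was also the lowest P30 library for Lama5 and Tln1. The order P30b, P30a, P30c held as well for members called lower, among them Lamb1, Lamc1, Col18a1 and Ilk. Uncalled members had it too, among them Nid2, Agrn, Col4a1 and Itga1. The share of all tested genes with this order is not given here, so the order does not set the members called higher apart. Hspg2 was highest in P30b but lowest in P30a, at 1.58, 2.46 and 2.06 times its P6 mean in P30a to P30c. In P30c, where the endothelial sum was 2.06 times its P6 mean, Nid1 stood at 1.40 times, Itga6 at 1.06 times, Col15a1 at 1.66 times and Lama5 at 1.30 times their P6 means; in P30b, where the endothelial sum was 4.24 times, they stood at 2.94, 2.12, 3.89 and 2.18 times. The part of endothelial cells in these results was not tested. Lamb2, Itga7 and Itga9 were highest in P30c, at 2.36, 2.41 and 1.66 times their P6 means, and Itgb6 was between 4.85 and 5.14 times in the 3 P30 libraries.

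**Figure D4:**
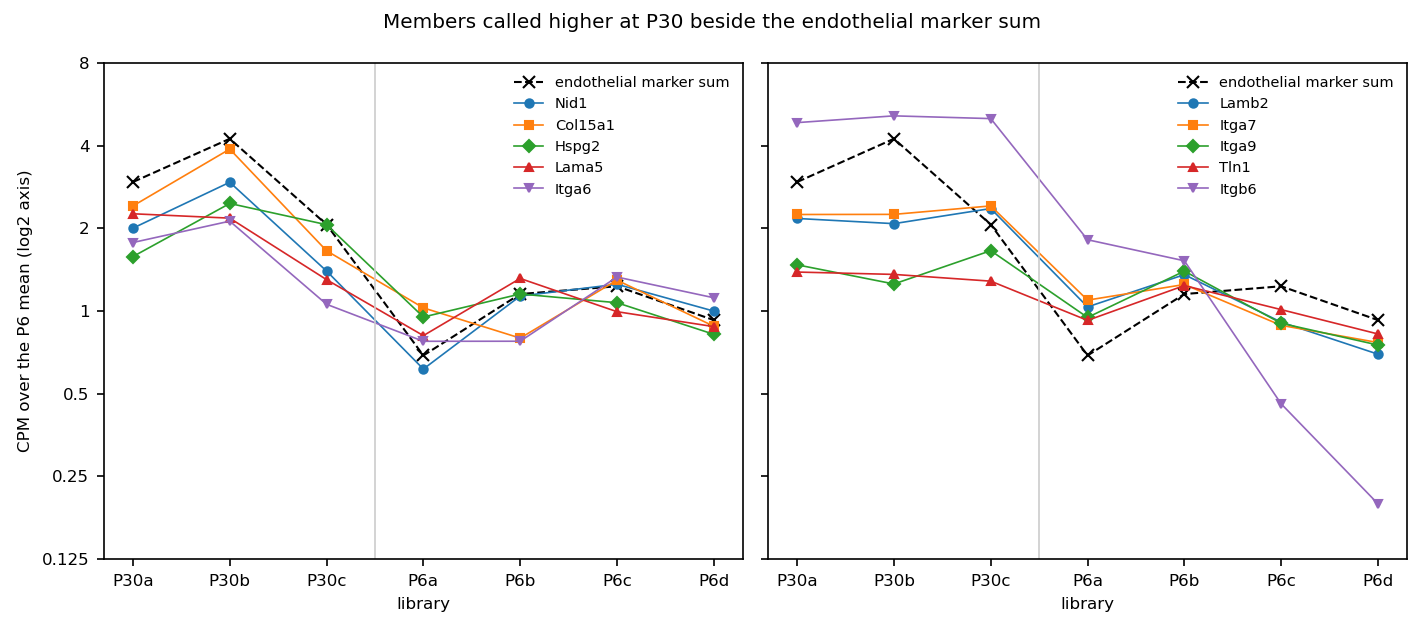
CPM over the P6 mean (log2 axis) in each library for the 10 members called higher and for the sum of 10 endothelial markers (dashed), with P30 libraries left. The marker sum peaks at 4.24 in P30b, as do Nid1 and Col15a1 in the left panel, whereas Lamb2 and Itga7 in the right panel stay between 2.08 and 2.41 in all P30 libraries.

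Markers of other cell types were summed in the same way. Pericyte and smooth muscle markers summed to 997 to 1829.8 CPM at P30 and 978 to 2193 CPM at P6, mostly Acta2 (1186 ± 463 CPM at P30 and 1456 ± 626 CPM at P6), followed by Cspg4 (48.4 ± 1.37 CPM at P30 and 50.5 ± 12.4 CPM at P6), neither of which passed the test. Of the 8 markers, 5 were higher at P30. These were Pdgfrb (37.5 ± 11.6 CPM at P30 and 12.8 ± 2.69 CPM at P6), Notch3 (17.9 ± 5.94 CPM at P30 and 4.81 ± 1.21 CPM at P6), Kcnj8 (15.6 ± 4.79 CPM at P30 and 4.42 ± 1.04 CPM at P6), Myh11 (13.99 ± 2.84 CPM at P30 and 5.100 ± 3.81 CPM at P6) and Rgs5 (23.6 CPM at P30 and 9.46 CPM at P6 on average), named after their values were seen, with fold changes between 2.47 for Rgs5 and 3.65 for Notch3. Pdgfrb, Notch3, Kcnj8 and Rgs5 were highest in P30b, as the endothelial sum was. The other markers of this list were not. Acta2 and Cspg4 were lowest in P30b, as was the sum of the list (997 CPM), and Myh11 was highest in P30a. Fibroblast markers summed to 137 to 313 CPM at P30 and 158 to 391 CPM at P6, highest in P6b, with Col3a1 at 97.7 ± 45.8 CPM at P30 and 116 ± 56.4 CPM at P6 and Postn at 13.7 ± 5.42 CPM at P30 and 38.9 ± 8.87 CPM at P6; of 7 tested, Postn alone was called, as lower. Leukocyte markers summed to 11.5 to 34.8 CPM at P30 and 1.95 to 4.64 CPM at P6, with Lyz2 at 8.71 ± 5.66 CPM at P30 and 1.86 ± 0.655 CPM at P6 and Csf1r at 6.28 ± 3.92 CPM at P30 and 0.587 ± 0.556 CPM at P6, and 5 of 6 tested were higher. Leukocyte markers were thus few at both ages, with each P30 library above each P6 library. Schwann and neural markers summed to 29.9 to 37.6 CPM at P30 and 172 to 208 CPM at P6, nearly all of it Ncam1 (28.96 ± 5.005 CPM at P30 and 182 ± 15.3 CPM at P6). Platelet and erythroid markers summed to 1.05 to 5.75 CPM at P30 and 2.36 to 10.7 CPM at P6, with Hbb-bs at 2.004 CPM at P30 and 6.08 CPM at P6 on average and Pf4 at 0.9698 ± 0.7001 CPM at P30 and 0.212 ± 0.143 CPM at P6, and Hba-a1 was listed at 0 in every library. Epicardial markers summed to 4.02 to 6.805 CPM at P30 and 1.36 to 6.83 CPM at P6, with Msln at 2.16 ± 1.17 CPM at P30 and 1.22 ± 1.55 CPM at P6 and Wt1 at 1.67 ± 1.18 CPM at P30 and 1.48 ± 0.683 CPM at P6. The part of these cells in the results above was not tested.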

How the data were processed

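RNA was taken from sorted cells, 10 ng was amplified with SMART-Seq v4 in 8 cycles, and libraries were made with Nextera XT and read on a NextSeq500, per the labels' protocols. The treatment text of the labels names a P14 collection, while titles, ages and design give P6 and P30, which were used. The authors deposited raw counts per gene, from CASAVA 1.8, STAR 2.5.3a and featureCounts of Subread 1.5.2 on mm10, per the submitters' processing notes. Their handling of strand, multi-mapping and overlapping reads is not given in the sources used here. The authors also deposited a DESeq2 comparison whose baseMean is a signal of size-factor-scaled counts, whose fold changes and errors are on the log2 scale, whose Wald statistic is a score and whose p-value columns are theirs, per the file headers.

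The quasi-likelihood test of edgeR 4.0.16 (R 4.3.3) was run on genes kept by filterByExpr, with TMM factors and age as the only term, and Benjamini-Hochberg adjustment covered all 12561 genes at a threshold of 0.05. The procedure was tested on simulated data. CPM use TMM-scaled library sizes, and levels per kilobase use the longest annotated coding transcript of GENCODE mouse release 21 (GRCm38), which also gave coordinates and exon overlaps; 22880 of 23337 symbols matched it when older symbols were used. A share was tested only where each library had at least 20 counts in the pair. Start windows came from RefSeq on GRCm38.p6, where 35 members had one. No library repeated another: the chi-square per gene between libraries of an age was at least 12.3, where sampling noise gives about 1. Alternatives were median-of-ratios factors, library totals, no filter, DESeq2 1.42.0, a smooth length trend removed, each library left out, and each pair of P6 libraries alone, the last chosen after seeing the data.

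The members, gene lists and marker lists were chosen with earlier results of these data known. Genes named are each tested member, the 2 called genes with the highest mean CPM per direction in each pathway list, the 2 markers with the highest mean CPM in each marker list, and the genes of the 12 pairs; any other gene is marked as chosen on seeing its values. A few genes that the rule names are not reported here, though counts and sums over lists include them.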

Additional observations from a re-analysis of the deposited data

Results flagged for a closer look

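In 52 groups of 4 P6 libraries (40 tested members and 12 shares), 5 had a library far from the other P6 libraries by Dixon's ratio of the gap to the range; chance flags about 1 in 20 groups. P6b was the high library for Lama4 (ratio 0.859), Vcl (0.877), Col4a1 (0.848) and Col4a6 (0.878). P6a was the high library for the share of Itga7 in its pair with Itga5 (0.889), at 59.1% against 53.8% to 54.4% in the other P6 libraries. P6b also had the highest sum of fibroblast markers, at 391 CPM, and the largest share of counts in the listed genes. The 3 P30 libraries are too few for this check.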

How the results depend on the processing

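Of 19 called members, 16 kept direction and call under all 14 alternatives, the exceptions being Itga6, Itga9 and Tln1, and 9 of the 21 uncalled members were never called. The share of all called genes that kept their call was not computed, so these counts do not set the members apart. With 1 library left out, 7 to 10 members were higher and 9 to 11 lower. Over all tested genes, 2788 to 3460 were then higher and 2885 to 3577 lower, against 3307 and 3490 with all libraries. Col4a4 reversed to a log2 fold change of 1.35 with P6c and P6d as the P6 libraries, and Tln2 to -0.29 with the length trend removed, while Tln2 was called higher, at 0.21, with P6c and P6d; the cause was not tested. The number of further integrin subunits called higher, 1, was 0 with library totals or with the length trend removed, 2 with no filter, DESeq2 or P6a and P6b alone, and 0 to 2 with 1 library left out. The number of non-integrin receptors called higher, 2, was 1 with library totals, 4 with P6c and P6d alone and 0 to 4 with 1 library left out. The number of other matrix ligands called higher, 4, was 7 with no filter. With 1 library left out, each share kept the sign of its difference except that of Col4a1 in its pair, whose difference of 0.023 percentage points ran from -1.17 to 0.959; the shares were not tested with a library left out, since so few placements could not pass the threshold. No paired analysis was possible because the count columns carry letters that the labels tie to no replicate number. P6a and P6d were the shallowest libraries, and no limit of detection was computed for single members.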
